A study of Arabidopsis thaliana with 8 samples.

Results

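The core histone genes of Arabidopsis thaliana are described here by their chromatin accessibility in lateral organ founder cells and in the cells around them. The set was given as a list of 38 loci out of 27444 nuclear protein-coding genes. It holds 8 genes for H4, 5 for H3.1, 3 for H3.3, 4 for canonical H2A, 2 for H2A.X, 3 for H2A.Z, 3 for H2A.W and 10 for H2B. The list names genes by the protein they encode, and coverage values set no limit on membership. Of the 38 loci, 18 carry a symbol of their own in the reference table, and the others are named by locus and class.

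Histones package DNA into nucleosomes, each built from H2A, H2B, H3 and H4. Most canonical histones are made in S phase, when new chromatin is assembled behind the replication fork, and H3.1 is loaded there by the chaperone CAF-1. The variants have other routes: H3.3 is placed outside replication at transcribed genes, H2A.Z sits at gene starts, H2A.X marks DNA breaks once phosphorylated, and H2A.W is a plant variant of heterochromatin. In dividing tissue such as an inflorescence apex the replication-linked genes are among the most active. Here H4, H3.1, canonical H2A and H2B (27 genes) are called replication-linked, and H3.3, H2A.X, H2A.Z and H2A.W (11 genes) variant. This division follows textbook usage, and expression was not measured.

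Both populations came from apices of 4 to 5 week old plants carrying the DRNL::erGFP reporter in the ap1 cal double mutant, whose flowers are replaced by proliferating meristems. GFP-positive protoplasts, sorted by the activity of the DRNL promoter, were the founder cells, and GFP-negative protoplasts were the meristem cells left after their removal. Each population had 3 ATAC-seq libraries, described as biological replicates, each from the pooled apices of about 700 to 900 plants. The GFP-positive libraries are described with 95000 to 300000 protoplasts and the GFP-negative libraries with 300000. Effects of this input cannot be told apart from those of the population. Another 2 libraries of sheared DNA were not analysed here. ATAC-seq uses a transposase that cuts and tags open DNA, and the authors deposited a list of transposase hypersensitive sites (THSs) for each sorted library.

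The GFP-positive lists held 24156 to 26216 THSs over 17.3 to 19.6 Mb and the GFP-negative lists 26001 to 28757 THSs over 17.8 to 19.4 Mb. Read depth is unknown, and the lists give no counts. The measure is THS coverage, the percent of a window (the gene body plus flanks of 1000 bp) that lies inside THSs. Sites are whole windows of 100 bp, and 100 bp equals 2.51 to 3.97 percentage points at these genes. All 5 markers of founder cells examined had all 3 GFP-positive libraries above all 3 GFP-negative libraries, and 0 of these 5 passed limma (adjusted p from 0.0666 to 0.192). The test that called no histone gene changed thus called no marker either. A column of genes with differential sites in the authors' deposited table, dTHS-up, does hold the markers DRNL, PUCHI, AHP6 and FIL. It holds neither the marker LFY nor any of the 38 histone genes. DRNL itself had 60.5% ± 5.72 in GFP-positive and 34.7% ± 5.07 in the GFP-negative libraries (SD, n = 3 each; limma adjusted p = 0.0815).

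Core histone genes were widely accessible in both populations. Each of the 38 genes had a THS in its window in all 6 libraries, as did 89.7% of the 21886 genes tested. Mean coverage over the set was 39.8% ± 2.7 in the GFP-positive and 37.4% ± 1.1 in the GFP-negative libraries, whereas over all 27444 genes it was 18.3% ± 1.32 and 18.8% ± 0.886 (SD, n = 3 each). By the mean of the 6 libraries, 35 of the 38 lay above the median of all genes (13.7%), and 12 lay above 90% of all genes. Histone genes are short, with a median length of 920 bp against 2078 bp for all genes, so their windows hold more flank. In the flanks alone, where every gene has the same 2000 bp, the set still had 39.8% ± 2.85 in GFP-positive and 38.1% ± 1.26 in the GFP-negative libraries. All genes had 26.1% ± 1.73 and 26.6% ± 1.29 there (SD, n = 3 each).

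**Figure D1:**
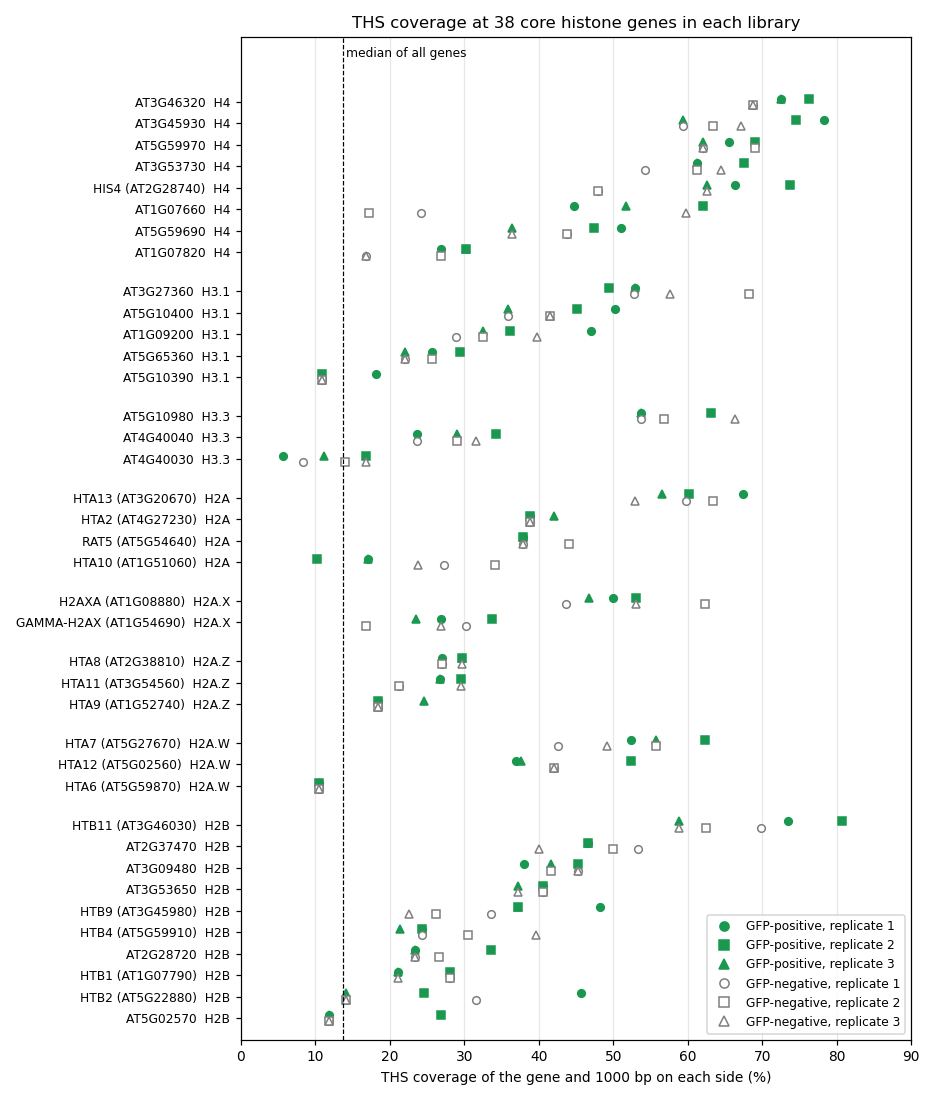
THS coverage of the gene and 1000 bp on each side (x axis, %) at the 38 core histone genes (rows, grouped by class), with 1 point per library. The highest value is 80.7% at HTB11 in GFP-positive replicate 2, most H4 genes lie on the right, and HTA6 sits at 10.5% in all 6 libraries, left of the dashed line at the median of all genes (13.7%).

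The windows held 57 accessible regions when the 6 lists were joined, and 51 of them (89.5%) had a THS in all 6 libraries, against 70.1% of all 26792 regions. Presence was counted at 1 bp of overlap, and the median width was 1000 bp at histone genes against 600 bp over all regions. Regions of like width were not compared. No region at a histone gene was listed in every GFP-positive library while missing from every GFP-negative one. A single region (1.75%) showed the reverse, at HTA10. Over all regions the shares were 0.418% in GFP-positive libraries alone and 2.1% in GFP-negative libraries alone, so the members were near the background. The strongest THS of a member by the authors' own site score outranked a median of 84.4% of the sites in its list, with a range over members of 33.1% to 97.7%. Taking the best of several sites raises such a rank, and at the 19622 genes with a site in all 6 libraries the median of the same measure was 70.1%. All 38 genes stood in the authors' deposited table among the genes with THSs in GFP-positive cells and among those with THSs in GFP-negative cells, as did 89.1% and 72.3% of all protein-coding genes. None stood in the authors' deposited columns of genes with differential sites, dTHS-up or dTHS-down, which hold 0.412% and 1.37% of all protein-coding genes.

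No core histone gene changed in coverage between founder cells and their neighbours by the test over all genes. Of 21886 genes, 76 (0.347%) had higher and 249 (1.14%) lower coverage in GFP-positive cells (limma, Benjamini-Hochberg adjusted p under 0.05), or 1.48% in all, and 0 of the 38 histone genes were among them. Their limma adjusted p ran from 0.216 to 1. At an unadjusted p under 0.05 there were 5 histone genes (13.2%), against 10.8% of all genes tested. Of these, 4 were higher (10.5% of members, 3.84% of all genes) and 1 was lower (2.63% of members, 6.95% of all genes). The count of 5 fell to 2 without GFP-positive replicate 1, to 3 without GFP-positive replicate 2 or without GFP-negative replicate 2, and to 0 in gene bodies. At 3 of the 38 genes the groups were apart (7.89%), against 10.2% of all genes tested. In flanks alone 0 of 38 members passed (lowest limma adjusted p 0.226), where 1.87% of genes did, 0.581% higher and 1.29% lower. In gene bodies alone 0 of 36 members passed (lowest limma adjusted p 0.65), where 1.56% of genes did, 0.535% higher and 1.03% lower. With 3 libraries a group, a single gene's exact permutation test could not go below p = 0.1.

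By gene, the direction of the differences leaned toward founder cells, at sizes close to the resolution of the lists. The mean over the set did not separate the groups of libraries. GFP-positive replicate 3 had 36.997%, below GFP-negative replicates 2 (37.975%) and 3 (38.182%). Mean coverage was higher in GFP-positive libraries at 26 of the 38 genes (68.4%), lower at 10 and equal at 2, against 41.8% higher, 44.6% lower and 13.7% equal among all genes tested. The median difference was 2.37 percentage points over the members and 0 over all genes tested. At 19 of the 38 genes the groups differed by less than 100 bp, a single site window, and at 11 by 200 bp or more. Leaving out GFP-positive replicate 2, the library with the most covered bases, brought the median to 0.59 points over the members, against -0.58 over all genes tested. Without GFP-positive replicate 1 it was 1.35 and without GFP-positive replicate 3 it was 3.83. In flanks alone 20 members were higher and 13 lower (median 0.88 points), against 39.6% and 40.4% of all genes tested. In gene bodies alone 20 members were higher and 8 lower (median 1.47 points), against 28.8% and 33.6% of all genes tested. Whether a wider site means that more cells had it open or that it was open more often in each cell cannot be told apart.

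**Figure D2:**
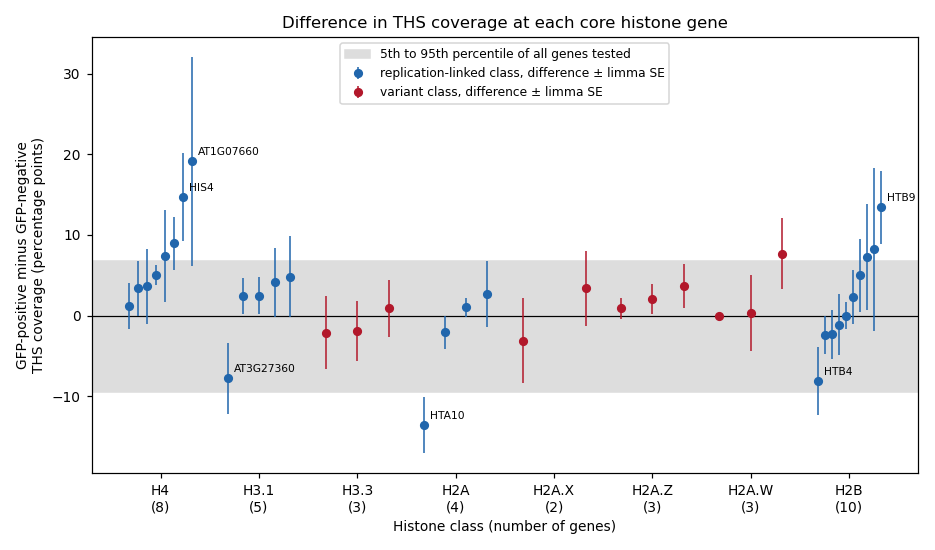
GFP-positive minus GFP-negative THS coverage (y axis, percentage points) at each core histone gene by class (x axis, number of genes in brackets), as the difference ± limma SE, with the 5th to 95th percentile of all genes tested in grey (-9.42 to 6.74 points). All 8 H4 genes lie above 0, AT1G07660 and HIS4 highest, while HTA10 lies lowest at -13.62 points.

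Replication-linked genes were more covered on average than variant genes in each library, a gap that H4 largely made up. Mean coverage of the 27 replication-linked genes was 44.3, 44.7 and 39.1% in the GFP-positive and 39.0, 40.3 and 39.9% in the GFP-negative libraries. For the 11 variant genes it was 30.2, 36.7 and 31.7% in GFP-positive and 29.2, 32.2 and 34.0% in the GFP-negative libraries. The gap of replication-linked over variant genes ranged from 5.89 points (GFP-negative replicate 3) to 14.1 points (GFP-positive replicate 1). In gene bodies it averaged 19.5 points in GFP-positive and 16.2 points in the GFP-negative libraries, in flanks 3.17 and 2.10 points. Gene length differed too, from 522 to 1286 bp at replication-linked and from 867 to 1992 bp at variant genes. The part of length in the gap was not tested. Without the 8 H4 genes, the gap of the other 19 replication-linked genes over the variants was 8.16, 0.452 and 0.95 points in the GFP-positive libraries, against 6.36, 4.22 and -0.36 points in the GFP-negative libraries. H3.1 bodies were less covered (18.6% in GFP-positive and 13% in the GFP-negative libraries) than variant bodies (28.0% and 26.4%). Between the populations, the median difference was 2.68 points for replication-linked and 0.88 points for variant genes. The difference of these medians, 1.81 points, was -2.15 when GFP-positive replicate 1 was left out and 3.98 when it was replicate 3. Leaving out GFP-negative replicate 2 gave 3.53, and replicate 3 gave 0.039. In flanks alone it was -1.57, so its sign was not stable. The groups of libraries overlapped for both kinds.

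H4, a part of each nucleosome, was the most accessible class. Its 8 genes averaged 58.3, 62.6 and 54.5% in GFP-positive and 47.1, 49.7 and 54.7% in the GFP-negative libraries. The lowest GFP-positive library lay just under the highest GFP-negative library, so the groups overlapped. THSs ran across much of the gene body, measured from one annotated gene end to the other. The coding region was not measured apart. Body coverage averaged 79.3% ± 6.95 in GFP-positive and 73.1% ± 3.75 in the GFP-negative libraries, against 12.5% ± 1.09 and 12.9% ± 0.524 over all genes (SD, n = 3 each). It exceeded 50% in both populations at 6 of the 8 H4 genes, at 5 of the 30 other members and at 5.8% of all genes. H4 genes are 644 to 1131 bp long, against a median of 2078 bp for all genes, and bodies of like length were not compared.

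Each of the 8 H4 genes had a higher mean in GFP-positive libraries, where 41.8% of all genes tested did, and 0 of the 8 passed limma. The count stayed at 7 or 8 when any library was left out, and was 5 in gene bodies alone. The differences ranged from 1.15 to 19.12 points with a median of 6.23. This class holds 3 of the 4 histone genes that were higher at an unadjusted p under 0.05, namely AT3G46320, AT1G07820 and HIS4.

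AT3G46320 (chromosome 3, 17019785 to 17020428 on TAIR10) had the highest coverage of the H4 genes. It had 72.5, 76.2 and 72.5% in GFP-positive libraries and 68.7% in each GFP-negative library. The groups did not overlap, and the body was covered in full in all 6 libraries, so the difference of 5.04 points lay in the flank (SE 1.23; limma adjusted p = 0.216). Leaving out GFP-positive replicate 2 gave 3.78 points with a limma adjusted p of 0.0472, the one call at a histone gene over all alternatives run. There both remaining GFP-positive values were identical, as were the 3 GFP-negative values, so that the p rests on the spread limma borrows from other genes and says nothing of the spread at this gene.

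HIS4 (AT2G28740; chromosome 2, 12329345 to 12330059) had 66.3, 73.7 and 62.6% in GFP-positive libraries, against 47.9, 47.9 and 62.6% in the GFP-negative libraries. The lowest GFP-positive value tied with the highest GFP-negative value. In GFP-positive replicates 1 and 2 a single THS of 1800 or 2000 bp spanned the gene. In GFP-negative replicates 1 and 2 the gene was covered by a THS of 1000 bp and a separate one of 300 bp. The remaining libraries did not follow this split. GFP-positive replicate 3 had separate sites of 1000 and 700 bp. In GFP-negative replicate 3 a THS of 1400 bp spanned the gene, beside one of 300 bp. The difference was 14.73 points (SE 5.43; limma adjusted p = 0.445).

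AT1G07660 (chromosome 1, 2368833 to 2369735) had the largest positive difference in mean coverage, with a spread between GFP-negative replicates that was wider still. Its values were 44.8, 62.0 and 51.7% in GFP-positive libraries and 24.1, 17.2 and 59.8% in the GFP-negative libraries. All libraries listed a strong site of 500 to 700 bp at the lower-numbered end of the gene. A second, weak region from 2369201 to 2370800 had sites in all 3 GFP-positive libraries and in GFP-negative replicate 3, and none in the other two GFP-negative libraries. The difference was 19.12 points (SE 12.9; limma adjusted p = 0.669), 32.15 points without GFP-negative replicate 3, 10.88 points without GFP-negative replicate 2, and -2.04 points with flanks of 2000 bp.

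AT1G07820 (chromosome 1, 2421089 to 2422066), the least covered H4 gene, had 26.9, 30.2 and 30.2% in GFP-positive and 16.8, 26.9 and 16.8% in the GFP-negative libraries. A site of 500 bp at its higher-numbered end was the same in all 3 GFP-positive libraries and in GFP-negative replicates 1 and 3. The GFP-positive libraries listed a further weak site of 300 or 400 bp inside the gene. GFP-negative replicate 2 listed a single site of 800 bp, from 2421601 to 2422400, over part of that inner stretch and the end site. The groups touched at 26.9% (difference 8.95 points, SE 3.28; limma adjusted p = 0.443). The other H4 genes, AT3G45930, AT3G53730, AT5G59690 and AT5G59970, differed by 7.42, 3.36, 3.64 and 1.15 points (limma adjusted p from 0.716 to 0.938).

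**Figure D3:**
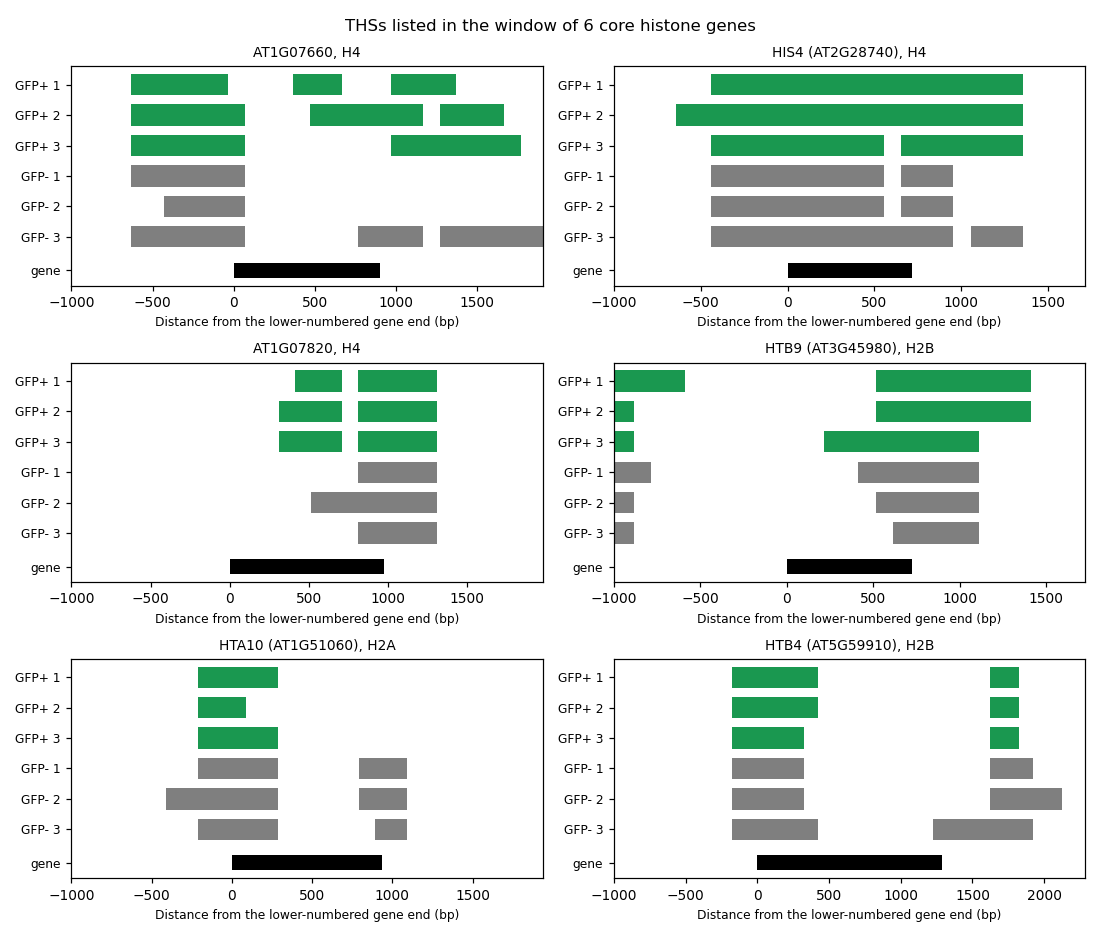
THSs listed in each library (rows, GFP-positive in green above GFP-negative in grey) around 6 core histone genes (black bars), by distance in bp from the lower-numbered gene end, cut at 1000 bp outside the gene. At HIS4 the right-hand sites end further out in the 3 GFP-positive libraries and GFP-negative replicate 3 than in GFP-negative replicates 1 and 2, and the short site at the right end of HTA10 is listed in the 3 GFP-negative libraries alone.

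Mean flank coverage separated the groups in opposite directions at H4 and at canonical H2A, where the difference lay almost wholly at HTA10. H4 flanks held 49.2, 53.0 and 47.4% in the GFP-positive libraries, all above the 38.6 to 46.3% of the GFP-negative libraries. Canonical H2A flanks held 41.4, 40.7 and 39.5% in the GFP-positive libraries, all below the GFP-negative libraries, the lowest of which had 42.5%. By gene, the flanks differed by -11.03 points at HTA10, -0.4 at HTA13 and 0 at RAT5 and HTA2. Where these differences lay was read in steps of 250 bp, counted outward from both gene ends. This split was made after the data had been seen, and the reference gives no strand, so starts and ends of genes are pooled. In the first 250 bp the H4 genes had 82.0% ± 1.29 in GFP-positive and 78.9% ± 3.82 in the GFP-negative libraries. From 250 to 500 bp they had 69.1, 73.7 and 64.2% in GFP-positive and 49.2, 48.2 and 51.9% in the GFP-negative libraries, and here the groups did not overlap. Canonical H2A differed nearer the genes, with 48.9% ± 1.56 in GFP-positive and 56.4% ± 1.15 in the GFP-negative libraries in the first 250 bp, where its groups did not overlap either (SD, n = 3 each). This step was not split by gene for canonical H2A. For H4 from 500 to 750 bp the means were 34.4% ± 4.16 in GFP-positive and 24.9% ± 5.38 in the GFP-negative libraries. From 750 to 1000 bp they were 14.1% ± 1.39 in GFP-positive and 12.9% ± 5.94 in the GFP-negative libraries (SD, n = 3 each).

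In the step from 250 to 500 bp, 6 of the 8 H4 genes had a higher mean in GFP-positive libraries, 0 had a lower one, and 2 were equal. Among all 21886 genes tested 6004 (27.4%) had a higher mean there and 5991 a lower one. The step was singled out from these same H4 values, so the counts at H4 genes describe it and do not test it. HIS4 differed by 43.13 points, AT1G07660 by 35.53 and AT3G46320 by 32.27, followed by AT3G45930 with 24.67 and AT5G59690 with 16.33. Groups did not overlap at HIS4 and AT3G46320, against 1.63% of all genes tested with GFP-positive above. Over all genes this step had 27.6% ± 1.99 in GFP-positive and 28.0% ± 1.37 in the GFP-negative libraries (SD, n = 3 each).

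**Figure D4:**
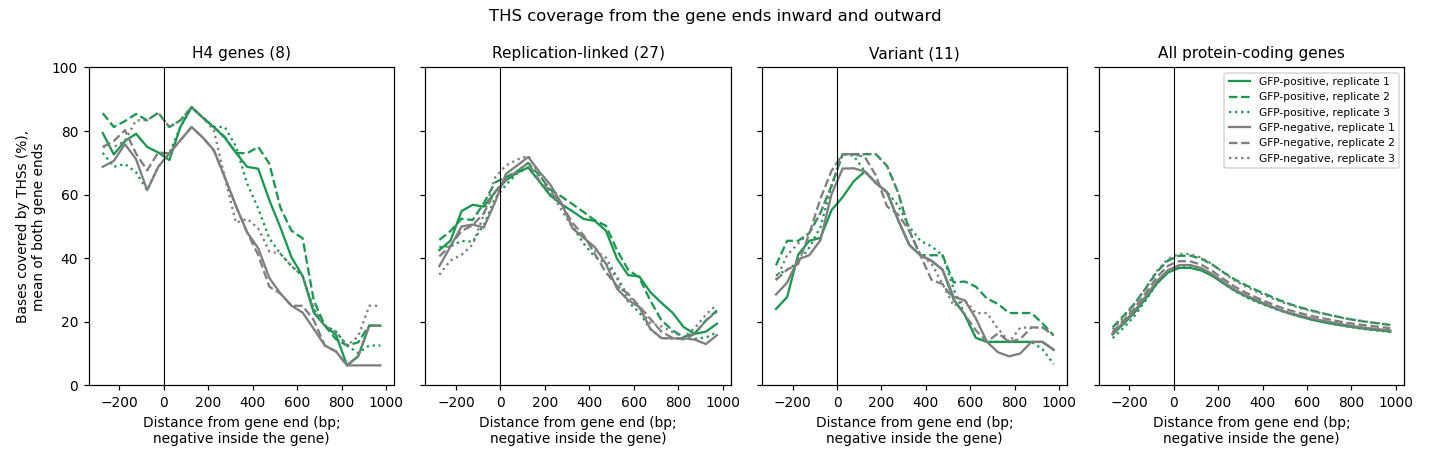
Share of bases covered by THSs (y axis, %) by distance from the gene ends (x axis, bp, negative inside the gene, both ends pooled) for 8 H4, 27 replication-linked, 11 variant and all protein-coding genes, with 1 line per library. The H4 lines cross each other inside the gene and near its ends and are apart by group over the step from 250 to 500 bp, where the GFP-positive libraries hold 64.2 to 73.7% and the GFP-negative libraries 48.2 to 51.9%.

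H3.1, the form of H3 loaded at replication, had more coverage beside the genes than inside them, as did all genes on average. Body coverage averaged 18.6% ± 6.96 in GFP-positive and 13% ± 4.81 in the GFP-negative libraries, flank coverage 41.1% ± 3.05 and 41.5% ± 2.27 (SD, n = 3 each). Over all genes, bodies had 12.5% in GFP-positive and 12.9% in the GFP-negative libraries, and flanks 26.1% and 26.6%. AT1G09200 had the most open body of the class, with 52.4% in GFP-positive and 26.3% in the GFP-negative libraries. AT3G27360 (chromosome 3, 10129105 to 10129937), the most covered H3.1 gene, had 52.9, 49.4 and 52.9% in GFP-positive and 52.8, 68.2 and 57.6% in the GFP-negative libraries. The groups overlapped at their low end. Its difference of -7.79 points (SE 4.36; limma adjusted p = 0.565) was -3.45 points without GFP-negative replicate 2 and became 6.02 points when the same number of top-scoring sites was kept in each library.

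AT5G10390, the least covered H3.1 gene, had 18.2, 10.9 and 10.9% in GFP-positive libraries and 10.9% in each GFP-negative library. Its tandem neighbour AT5G10400 shares 1423 bp of window with it and had 43.8% ± 7.28 in GFP-positive and 39.7% ± 3.25 in the GFP-negative libraries. AT1G09200 and AT5G65360 differed by 4.82 and 2.45 points (SD, n = 3 each; limma adjusted p from 0.74 to 0.749 over these 4 genes). Copies of H3.1 and of H4 are near-identical in their coding sequence, and how reads that match several copies were placed is unknown from the sources used here. Site edges inside these genes are therefore uncertain.

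H3.3, the replacement form of H3, showed a wide range of levels and small differences. AT5G10980 had 53.7, 63.2 and 53.7% in GFP-positive and 53.7, 56.9 and 66.3% in the GFP-negative libraries. AT4G40030 was among the least covered members, with 5.59, 16.8 and 11.2% in GFP-positive and 8.39, 14.0 and 16.8% in the GFP-negative libraries. It lies next to the third gene, AT4G40040, with which it shares 1958 bp of window. Their differences were -2.11 points at AT5G10980, -1.86 at AT4G40030 and 0.88 at AT4G40040 (limma adjusted p from 0.907 to 1), and the groups overlapped at each.

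Canonical H2A held the only member with all founder-cell libraries below all libraries of their neighbours. HTA10 (AT1G51060; chromosome 1, 18926811 to 18927746) had 17, 10.2 and 17% in GFP-positive and 27.2, 34.1 and 23.8% in the GFP-negative libraries. A site at the lower-numbered end of the gene was listed in all 6 libraries. At the other end, a region from 18927601 to 18927900 that reaches across the gene's end into the flank was listed in all 3 GFP-negative libraries and in no GFP-positive library. It is 300 bp in replicates 1 and 2 and 200 bp in replicate 3, and its score there was at or above that of 16.5, 33.9 and 14.6% of the sites in the list. The difference at HTA10 was -13.62 points (SE 3.47; limma adjusted p = 0.239). It kept its sign in every alternative run, from -20.66 to -7.95 points on the percent scale, without passing limma in any (lowest adjusted p 0.178). All genes tested had 6.63% with every GFP-positive library below every GFP-negative one.

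The other three canonical H2A genes differed by -2.08 to 2.68 points. RAT5 (AT5G54640, also HTA1), known for its role in Agrobacterium transformation of roots, had 37.9% in each GFP-positive library and 37.9, 44.1 and 37.9% in the GFP-negative libraries. HTA2 had 38.9, 38.9 and 42.0% in GFP-positive libraries and 38.9% in each GFP-negative library. HTA13, the most covered, had 67.4, 60.1 and 56.5% in GFP-positive and 59.7, 63.3 and 52.8% in the GFP-negative libraries. Groups overlapped or tied at all 3 genes (limma adjusted p from 0.74 to 0.849).

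Among the H2A variants no group separated. H2AXA (AT1G08880), a source of the damage-marked H2A.X, had 49.9, 53.0 and 46.8% in GFP-positive and 43.7, 62.4 and 53.0% in the GFP-negative libraries. GAMMA-H2AX (AT1G54690), the other H2A.X gene, had 26.9, 33.6 and 23.6% in GFP-positive and 30.3, 16.8 and 26.9% in the GFP-negative libraries. Their differences had opposite signs, -3.12 and 3.36 points (limma adjusted p = 0.881 and 0.822).

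H2A.Z genes had the least open bodies of all classes, at 10.2% ± 1.13 in GFP-positive and 9.54% ± 1.13 in the GFP-negative libraries, beside flanks of 38.5% ± 1.67 and 35.1% ± 2.89 (SD, n = 3 each). HTA8 had 27, 29.7 and 29.7% in GFP-positive and 27, 27 and 29.7% in the GFP-negative libraries, and HTA9 18.5, 18.5 and 24.6% in GFP-positive libraries and 18.5% in each GFP-negative library. HTA11 averaged 27.7% ± 1.61 in GFP-positive and 24.0% ± 4.83 in the GFP-negative libraries (SD, n = 3 each). The 3 means were higher in GFP-positive libraries by 0.90 to 3.72 points, and none passed limma (adjusted p from 0.697 to 0.834).

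H2A.W genes, whose product is bound to silent heterochromatin, ranged widely in coverage. HTA7 had 52.4, 62.3 and 55.7% in GFP-positive and 42.6, 55.7 and 49.1% in the GFP-negative libraries, the largest difference of any variant gene at 7.65 points (SE 4.41; limma adjusted p = 0.586). HTA6 had 10.5% in each of the 6 libraries. HTA12 had 42.3% ± 8.74 in GFP-positive libraries and 42.0% in each GFP-negative library (SD, n = 3). The H2B gene AT5G02570 lies inside HTA12 in the reference annotation, so these windows share 2522 bp.

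**Figure D5:**
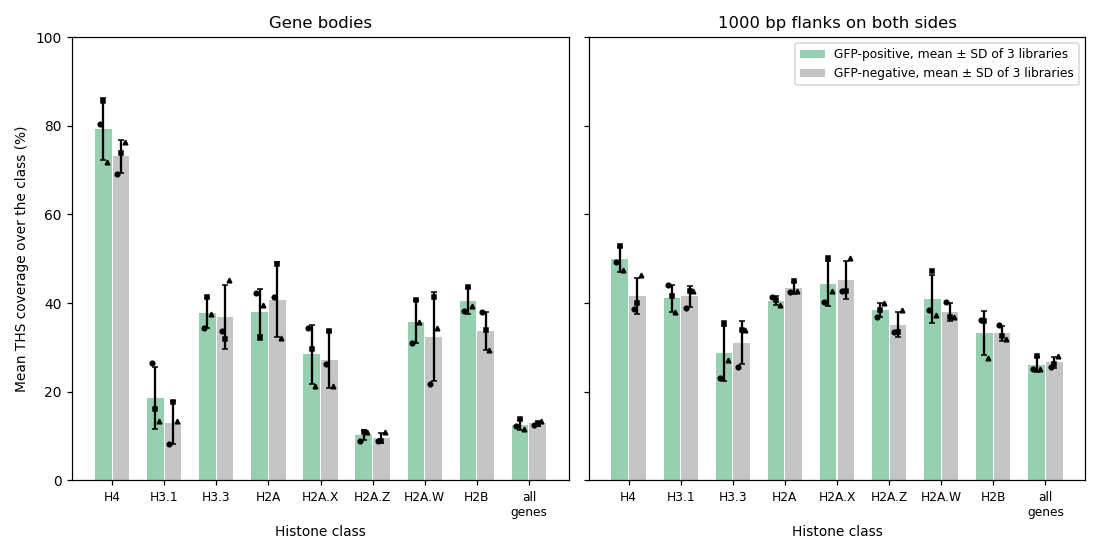
Mean THS coverage (y axis, %) of gene bodies (left) and of the 1000 bp flanks (right) for each histone class and all genes, with bars for the mean ± SD of 3 libraries and points for single libraries. H4 bodies stand at 79.3% in GFP-positive and 73.1% in the GFP-negative libraries, H2A.Z bodies at 10.2% and 9.54%, while the flanks of all classes lie between 28.6% and 49.9%.

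H2B, the partner of H2A in the nucleosome, had 10 genes with differences in both directions, 5 higher, 4 lower and 1 equal. HTB9 (AT3G45980; chromosome 3, 16897287 to 16898013) had 48.2, 37.2 and 37.2% in GFP-positive libraries, against 33.5, 26.2 and 22.5% in the GFP-negative libraries. The groups did not overlap. A THS over its higher-numbered part was 900 bp wide in each GFP-positive library and 500 to 700 bp wide in the GFP-negative libraries. The difference was 13.45 points (SE 4.53; limma adjusted p = 0.398), and it was positive in every alternative run. The gene AT3G45970 overlaps HTB9 in the reference annotation, so these sites cannot be given to HTB9 alone. With GFP-positive above, groups were separate at 2 members, HTB9 and AT3G46320 (5.26%), and at 3.61% of all genes tested.

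HTB11, the most covered H2B gene, had 73.4, 80.7 and 58.8% in GFP-positive and 69.8, 62.5 and 58.8% in the GFP-negative libraries, which tied at the low end. HTB4 (AT5G59910) had 24.3, 24.3 and 21.3% in GFP-positive and 24.3, 30.4 and 39.6% in the GFP-negative libraries. Its THS in the gene was 500 or 600 bp in each library, and the one toward the other end was 200 bp in each GFP-positive library and 300 to 700 bp in the GFP-negative ones (difference -8.12 points, SE 4.19; limma adjusted p = 0.537). Without GFP-negative replicate 3 it was -4.06 points. In the gene body alone the HTB4 difference was 0.98 points. AT5G02570, the least covered, had 11.9, 26.8 and 11.9% in GFP-positive libraries and 11.9% in each GFP-negative library, with no THS in its body. The other H2B genes, HTB1, HTB2, AT2G28720, AT2G37470, AT3G09480 and AT3G53650, differed by -2.43 to 8.20 points (limma adjusted p from 0.809 to 1, except 0.74 at AT3G09480).

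The bodies of the 10 H2B genes averaged 38.2, 43.7 and 39.3% in GFP-positive and 37.9, 33.9 and 29.4% in the GFP-negative libraries. The lowest GFP-positive library was above the highest GFP-negative library by less than a percentage point. The largest body differences were 35.65 points at HTB11 and 19.68 points at HTB2, and no H2B body passed limma.

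Sites in these windows often stand beside other genes as well. Of the 38 members, 37 have another protein-coding gene within their window and 7 overlap one in their body. Windows of 4 member pairs, 8 genes in all, overlap each other, and with these averaged into single loci the median difference was 2.55 points.

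Genes that act with histones showed no change called by limma either. Of 10 other histone genes, 9 could be tested, and 0 passed limma in either direction (median difference 0 points, 0 with an unadjusted p under 0.05). The centromeric H3 gene HTR12 had 22.0% ± 2.00 in GFP-positive and 16.7% ± 7.04 in the GFP-negative libraries, and AT1G13370 25.7% ± 14.9 and 27.1% ± 12.2, the largest positive and negative differences of that list. Of 21 histone chaperone and remodeller genes, 20 could be tested, with 0 higher, 0 lower, 2 at an unadjusted p under 0.05 and a median difference of 1.90 points, against 0 over all genes tested (SD, n = 3 each). An unadjusted limma p under 0.05 was found at 10.8% of all genes tested.

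NAP1;3, a nucleosome assembly chaperone of H2A and H2B, had 11.3, 13.2 and 11.3% in GFP-positive and 7.63, 0 and 3.81% in the GFP-negative libraries. Its groups did not overlap (difference 8.13 points, SE 2.11; limma adjusted p = 0.245), and 3.61% of all genes tested had GFP-positive above without overlap. NAP1;3 stands among the dTHS-up genes of the authors' deposited table, the only gene of these 3 lists in that column. Groups did not overlap at AT4G37210 of the same list either, with GFP-positive above (difference 7.81 points, SE 2.39; limma adjusted p = 0.328). The lowest difference of the list was at ASF1B, a chaperone of H3 and H4, with 11.7% ± 5.23 in GFP-positive and 14.5% ± 6.08 in the GFP-negative libraries (SD, n = 3 each). The groups overlapped at ASF1B (limma adjusted p = 0.845).

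Of 16 S-phase genes, 15 could be tested, with 0 higher, 0 lower, 2 at an unadjusted limma p under 0.05 (10.8% of all genes tested) and a median difference of 0 points. MCM3, a subunit of the replicative helicase, had 6.6, 11.6 and 6.6% in GFP-positive and 16.5, 13.2 and 18.2% in the GFP-negative libraries, which did not overlap (limma adjusted p = 0.252). Among all genes tested 6.63% had GFP-positive below without overlap. The groups were also apart at PRL, with 21.6, 23.0 and 18.7% in GFP-positive and 24.4, 25.9 and 25.9% in the GFP-negative libraries (limma adjusted p = 0.327). CDT1B, a gene of replication licensing, had the largest positive difference, with 9.60% ± 1.28 in GFP-positive and 5.91% ± 2.56 in the GFP-negative libraries (SD, n = 3 each; limma adjusted p = 0.517). The median coverage over the list was 8.98% in GFP-positive and 9.05% in the GFP-negative libraries, under the median of all genes (13.7%).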

How the data were processed

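ATAC-seq site lists of 3 GFP-positive and 3 GFP-negative libraries were used, grouped by sample title. The authors worked on the TAIR10 genome with SICER (no version listed), bedtools 2.17.0, Picard 1.105, SAMtools 0.1.19 and BWA 0.7, per the submitters' processing notes. Tool roles, site-calling settings, read shift and duplicate handling were not given in the sources used here. Each list holds a chromosome, start, end and a score per site that the authors deposited without naming its scale. Sites were read as whole 100 bp windows, and positions count from 1. The authors' deposited table of the series has 4 columns of gene identifiers, with no values.

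Gene positions came from a RefSeq table of TAIR10.1, which keeps the TAIR10 nuclear sequence and gives no strand or sequence, so the planned promoter measure and sequences were left out. The percent of each window covered by sites was fitted with limma 3.58.1 in R 4.3.3 (eBayes with a trend, no block, coverage in at least 2 libraries), two-sided, with Benjamini-Hochberg adjustment over all genes. Class means, bands and regions are descriptions. Regions joined all lists, with presence at 1 bp of overlap. The code was tested on simulated data.

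The members, lists and tests were chosen with earlier results of these data known. Values in every library are given for members that pass limma, whose groups do not overlap, that have the largest or smallest mean of their class, or that are among the 3 largest differences in either direction. From the other lists, genes that pass are named, or otherwise the largest difference in each direction. Other members, such as RAT5 and HTA2, were described after their values were seen. AT4G37210 and PRL of the other lists were added because their groups did not overlap. Alternatives were other flanks, bodies or flanks alone, fewer sites, each library left out, a replicate block, another filter, an arcsine scale and a robust fit. The design text calls the replicates biological without saying what was repeated, and no label says that a replicate number marks a shared sort.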

Additional observations from a re-analysis of the deposited data

How the results depend on the processing

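With 3 libraries a group and sites in steps of 100 bp, small differences at short genes could not be resolved, and depth was unknown. The count of histone genes passing limma was 0 under every alternative except 1 without GFP-positive replicate 2 (range 0 to 1 over libraries left out). Counts over all genes moved more. Higher genes (76) numbered 125 in flanks alone, 187 with an equal number of top-scoring sites, 119 with the top-scoring 75% of sites, 1 with the replicate block and 84 to 208 with a library left out. Lower genes (249) numbered 29 with the replicate block and 141 to 443 with a library left out. Deviations of same-numbered libraries correlated by 0.1605, 0.0672 and 0.0389 over genes. Differently numbered libraries gave 0.0853 for GFP-positive replicate 2 with GFP-negative replicate 3, and otherwise negative values down to -0.1453. No label states a pairing, so the main fit took none. Whether the numbers mark pairs cannot be told from these values. The median difference of the members (2.37 points) ranged from 0.59 to 3.83 with a library left out. The gap of replication-linked over variant genes (8.89 points) was 12.7 with flanks of 500 bp, 2.63 in flanks, 17.8 in bodies, 12.7 without H2B, 3.297 without H4 (an alternative chosen after seeing the data) and 7.85 to 9.49 with a library left out. Differences turned sign at AT1G07660 with flanks of 2000 bp (-2.04 points), at AT3G27360 with equal (6.02) or the top 75% of sites (5.98) and at HTB4 (AT5G59910) in the body (0.98). Members whose groups do not overlap, 3 in all, numbered 4 to 8 with a library left out. Leaving out a library can only keep or add such members, and no share over all genes was computed for these runs. The cause of the other shifts was not tested. The promoter measure and its alternatives were not run.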
